A study of Mus musculus with 30 samples.

Results

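The nuclear genes for the subunits of the oxidative phosphorylation complexes were described in C2C12 myotubes, the multinucleated cells that form when this mouse myoblast line fuses. Members were the protein coding genes whose symbols begin with Nduf and a subunit letter and number, are Sdha to Sdhd, begin with Uqcr, Cox4 to Cox8 or Atp5, or are Cyc1 or Cycs, and assembly factors were left out. This rule took 87 of the 55487 genes counted: 37 of complex I, 4 of complex II, 9 of complex III, the electron carrier Cycs, 18 of complex IV and 18 of complex V. Of these, 81 had enough counts to be tested. By symbol, Ndufa4 and its paralogue Ndufa4l2 were grouped with complex I in all counts and medians, though Ndufa4 is found in complex IV. The rule used names alone, without measured values.

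Myotubes were differentiated for 4 days in 2% horse serum and then kept for 4 more days in 1 of 5 media, for 8 days in all. The groups were 2% HS (horse serum kept at 2%), SD (serum deprivation, with no serum), MET (SD with 100 nM metformin), LEU (SD with 500 nM leucine) and MET+LEU (SD with both at those doses). All were wild-type C2C12, and each group had 6 replicates, with 1 library per replicate. The study asked what serum deprivation, which is used as an atrophy stimulus, and the 2 agents do to the myotube. No label says whether the replicates were separate cultures, so p-values measure the spread between these libraries, which may be technical. Total RNA was depleted of rRNA, and counts on genes ranged from 12784960 to 19604103 per library. Fewer myotubes among the cells and less RNA per myotube cannot be told apart in such samples.

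Oxidative phosphorylation passes electrons from NADH (through complex I) or succinate (through complex II) to complex III, then by cytochrome c to complex IV, which reduces oxygen. The proton gradient this builds drives complex V, the ATP synthase. The mitochondrial genome encodes a few core subunits of every complex except complex II, and the nucleus encodes the rest, so a working complex needs products of both genomes. In muscle, several complex IV subunits have a striated muscle form and a form found in all tissues.

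Promoter sequence was looked at for 4 motifs that nuclear respiratory genes are known for: the NRF1 core GCGCANGCG, the ETS (GABPA) motif CCGGAAG, the YY1 motif AAGATGGC and the estrogen-related receptor (ERR) motif AAGGTCA, each on both strands. None of the 4 contains another, and the window ran from 250 bases before to 50 after a RefSeq transcription start (GRCm38.p6). Of the 81 tested members, 65 had a promoter in the table. The NRF1 core was in 32.3% of these members and in 7.0% of the 27025 genes with a promoter (9.6% of the protein coding ones). The ETS motif was in 24.6% vs. 9.9% of all genes, the YY1 motif in 13.8% vs. 3.2% and the ERR motif in 12.3% vs. 5.4%. Among protein coding genes with a promoter, these 3 motifs were in 12.9%, 3.6% and 4.7%. A match is a description of letters and does not show that a factor binds. The 8 sites below were picked, with the results known, as examples from members higher in MET+LEU than in SD, each as 30 bases read 5′ to 3′ on the gene's strand with the match, in either orientation, in capitals.
Cycs, NRF1, chr6:50566611-50566640, minus strand: catgctagctCGCATGCGCgcgcacaaacc
Ndufa5, NRF1, chr6:24527697-24527726, minus strand: tgtgtgagctGCGCAGGCGcaaatctacct
Ndufs5, NRF1, chr4:123718265-123718294, minus strand: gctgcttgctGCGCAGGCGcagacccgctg
Atp5c1, NRF1, chr2:10080433-10080462, minus strand: cgcctgagctcccGCGCACGCGcactgagt
Ndufb7, ETS, chr8:83566727-83566756, plus strand: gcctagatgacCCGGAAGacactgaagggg
Cox6b1, ETS, chr7:30626124-30626153, minus strand: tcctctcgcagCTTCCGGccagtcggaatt
Atp5j, ETS, chr16:84835019-84835048, minus strand: agctgagggacCCGGAAGcacttaccctcc
Atp5j, YY1, chr16:84835046-84835075, minus strand: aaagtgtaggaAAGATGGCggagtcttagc
Matches in Atp5h, Ndufb4 and Uqcrh and the ERR match of Ndufs5 are not shown. Also left out are matches that span or follow the start: NRF1 in Ndufb10, ETS in Ndufs8 and YY1 in Atp5j2.
The longer stretch before the start of Cycs, chr6:50566570-50566689, holds no exon of Cycs and 47 bases of an exon of the noncoding gene 5430402O13Rik, has no other match to the 4 motifs, and is shown because Cycs had the smallest adjusted p of all members in MET+LEU vs. SD: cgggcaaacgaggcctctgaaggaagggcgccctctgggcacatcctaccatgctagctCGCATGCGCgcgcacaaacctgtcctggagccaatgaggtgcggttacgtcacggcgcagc
Of the 65 members, 20 rose in MET+LEU vs. SD. The NRF1 core was in 7 of them and in 14 of the others, and the ETS motif in 6 and in 10. The YY1 motif was in 2 and in 7, and the ERR motif in 2 and in 6, with 45 members in the second group.

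Levels differed widely between the members. CPM, counts relative to the TMM-scaled library total, was divided by the length in kb of all annotated exons of a gene. That length may exceed the length of the transcripts present, so the levels compare genes only roughly. Atp5b, the catalytic beta subunit of ATP synthase, was highest, at a mean over the groups of 269.66 CPM per kb, followed by Cox6b1 at 187 and Atp5a1 at 185. The lowest tested members were Atp5s at 2.73 and Ndufb2 at 4.72 CPM per kb, the latter over 5628 bases of annotated exons. By complex, the median level in SD was 87.0 CPM per kb for complex IV, 55.4 for complex III, 54.8 for complex V, 37.0 for complex II and 33.5 for complex I, while Cycs had 12.9.

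The other 6 members were not tested. Cox4i2, Cox6b2, Cox7b2 and Cox8c, which are forms of tissues such as lung and testis, never exceeded 4 counts in a library. Ndufa4l2, a hypoxia-induced paralogue of Ndufa4, reached at most 9 counts. A readthrough gene model of Atp5o had 0 counts in every library, which allows up to 3 counts in each (0.153 to 0.235 CPM, for counting error only).

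Before the comparisons, the libraries themselves need a word. MET+LEU replicate 6 stood apart: 7.64% of its counts were on mitochondrial rRNA and 5.85% on nuclear rRNA, against at most 0.760% and 1.96% in the other 29 libraries. Without it, the mitochondrial rRNA share still differed between groups. It was 0.219% to 0.306% in 2% HS, 0.282% to 0.367% in SD, 0.244% to 0.705% in MET, 0.501% to 0.710% in LEU and 0.649% to 0.760% in the other 5 MET+LEU libraries. The 87 members together took 0.651% to 0.870% of counts, lowest in MET+LEU replicate 6. Markers of myotubes were abundant in every group (Myog, the differentiation factor, had a mean of 1070 CPM in SD), and so were transcripts of undifferentiated or cycling cells, whose means in SD ran from 10.0 CPM for Ccnb1 to 79.5 for Mki67 and 146.9 for Pax7.

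Serum deprivation changed few subunit genes. Of 81 members, 6 rose and 1 fell in SD vs. 2% HS (edgeR quasi-likelihood test, adjusted p under 0.05), where 13.9% of all 15907 genes tested rose and 13.9% fell. The median log2 fold change of the members was 0.06, beside 0.00 over all genes. The counts of members in either direction were thus not above the background, and the called changes lay between -0.10 and 0.30 on the log2 scale.

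Of these, Ndufa1 and Ndufs5 are accessory subunits of complex I. Ndufs5 lay between 29.5 and 36.3 CPM in 2% HS and between 30.2 and 43.9 in SD, so the groups overlapped. Its log2 fold change was 0.23 (SE 0.066, edgeR adjusted p = 0.00591). Ndufa1 rose by 0.30 (SE 0.109, edgeR adjusted p = 0.0423), from a median of 19.1 to 24.5 CPM, also with overlap. In complex II, Sdhc, a membrane anchor of succinate dehydrogenase, rose by 0.14 (edgeR adjusted p = 0.0221). In complex IV, 3 subunits rose: Cox5a by 0.21, Cox6b1 by 0.14 and Cox7b by 0.13 (edgeR adjusted p = 0.0437, 0.00875 and 0.0437). Uqcrc2, a core protein of complex III, fell by 0.10 on the log2 scale (edgeR adjusted p = 0.0328), from a median of 110.4 CPM to 101.2.

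Most of these calls were lost when some single library was left out. Only Ndufs5 and Cox6b1 passed whichever library was left out, and the number of members called ranged from 2 (without 2% HS replicate 2) to 13 (without SD replicate 5). Each of the other 5 kept its direction. At its highest adjusted p, Cox7b had a log2 fold change of 0.08 (0.198, without SD replicate 1), Cox5a 0.17 and Ndufa1 0.23 (0.126 and 0.122, without SD replicate 3), Sdhc 0.12 (0.0759, without 2% HS replicate 2) and Uqcrc2 -0.09 (0.0756, without SD replicate 2). Cox5a also lost its call without single MET, LEU or MET+LEU libraries, at a log2 fold change of 0.21. The split of calls also moved with the processing, from 6 higher and 1 lower to 5 and 2 with upper-quartile scaling and to 4 and 5 with offsets for GC content and length.

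**Figure D1:**
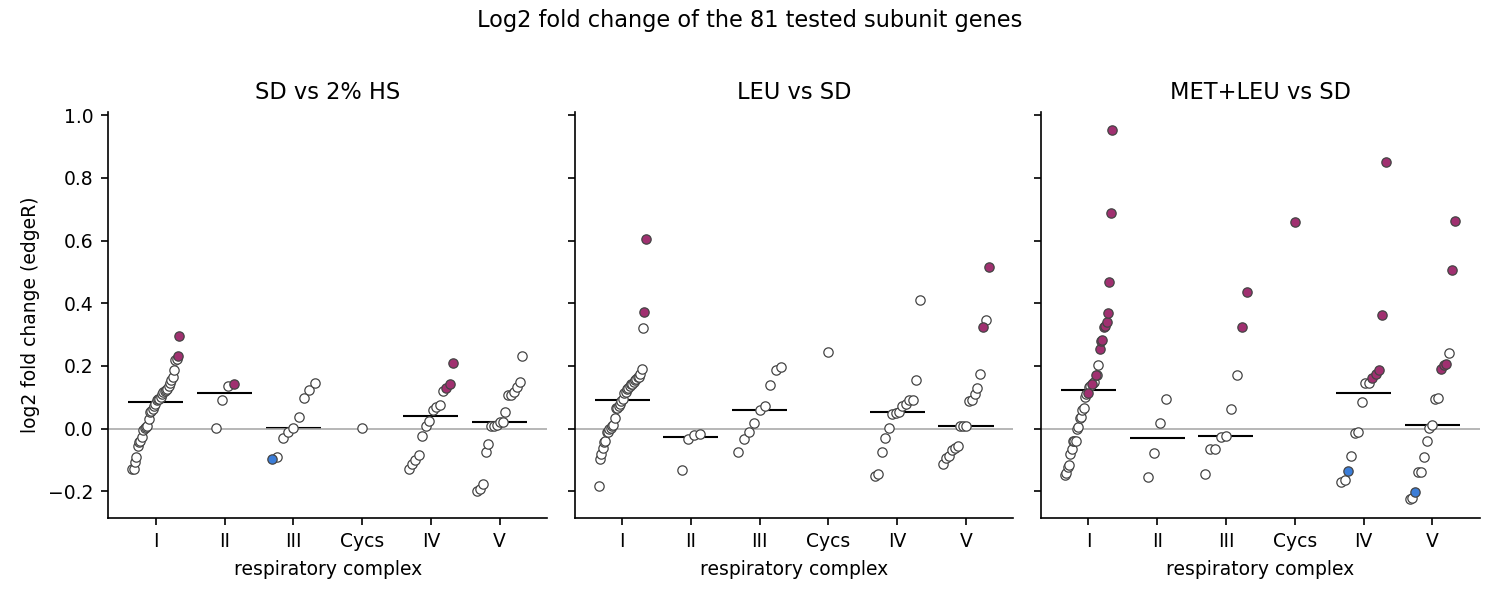
Log2 fold change (vertical axis) of the 81 tested members by respiratory complex (horizontal axis) in 3 comparisons, SD vs. 2% HS, MET+LEU vs. SD and, between them, LEU vs. SD. Each point is a gene, filled purple where it rose and blue where it fell at an adjusted p under 0.05. Horizontal lines are medians. In MET+LEU vs. SD, 13 of 36 complex I genes rose, 0 of 4 of complex II and 2 of 9 of complex III. Cycs, 5 of 14 genes of complex IV and 5 of 17 of complex V also rose.

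MET alone called no member. None of 81 rose and none fell in MET vs. SD at an adjusted p under 0.05 by edgeR, where 0.0754% of all genes rose and 0.0817% fell. At an unadjusted p under 0.05, 13 members were higher and 0 lower, beside 749 and 848 of all 15907 genes. DESeq2 called 5 higher and 0 lower, beside 0.793% and 0.671% of the genes to which it gave an adjusted p. The largest log2 fold change was that of Ndufa13, 0.52 (SE 0.116, edgeR adjusted p = 0.0621). Ndufa13 was called when the mitochondrial rRNA share of the library entered the fit, beside 0.101% of all genes higher. With that share in the fit and MET+LEU replicate 6 left out, 0 members were called, beside 0.0187% of all genes in each direction. Leaving out MET+LEU replicate 6, whose spread enters the estimate shared by all groups, gave 5 members higher, beside 0.691% of all genes higher and 0.305% lower.

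LEU raised 4 members over SD and lowered 0, beside 0.233% and 0.321% of all genes. The 4 were Ndufa13 and Ndufb7 of complex I and Atp5j2 and Atp5j of complex V. Ndufa13, also known as GRIM-19, is a membrane subunit of complex I. It lay between 33.6 and 50.8 CPM in SD (median 42.1) and between 62.1 and 70.2 in LEU (median 64.9). Every LEU library was above every SD library, and the log2 fold change was 0.61 (SE 0.116, edgeR adjusted p = 0.0112).

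Atp5j2 encodes the f subunit of the ATP synthase membrane part. Its range was 28.6 to 45.0 CPM in SD and 46.7 to 54.3 in LEU, again without overlap, with a log2 fold change of 0.52 (SE 0.095, edgeR adjusted p = 0.00615). Atp5j, coupling factor 6 of the peripheral stalk, rose by 0.32 (SE 0.059, edgeR adjusted p = 0.0037), from a median of 73.6 CPM to 92.8. Ndufb7, an accessory subunit of complex I, rose by 0.37 (SE 0.077, edgeR adjusted p = 0.0154), with overlap between SD (74.5 to 100.9 CPM) and LEU (100.0 to 112.1). In all, 6 members had every LEU library above every SD library, beside 0.786% of all genes, and 3 of the 6 were called. The others were Cox6c, Ndufa5 and Ndufa10, with log2 fold changes of 0.41, 0.32 and 0.14 (edgeR adjusted p = 0.0818, 0.226 and 0.0677). Leaving out MET+LEU replicate 6 raised the count of called members from 4 to 9, while the share of all genes rose to 1.05% higher and 0.629% lower. Cell state markers moved in LEU vs. SD as well, and their part in these changes was not tested. Of 12 myotube genes, 2 rose, Tnnc2 by 0.60 and Myh1 by 0.25, beside 0.233% of all genes. Each lost the call without any of 9 libraries in turn. The adjusted p was highest without LEU replicate 2, at log2 fold changes of 0.56 and 0.24 (edgeR adjusted p = 0.0919 and 0.0883). Of 8 genes of undifferentiated or cycling myoblasts, 2 fell, beside 0.321% of all genes, with Ccnb1 at -0.70 and Top2a at -0.46.

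MET+LEU had the broadest difference from SD. Of 81 members, 26 rose and 2 fell, where 10.6% of all genes rose and 7.8% fell. The median log2 fold change was 0.09 for the members and -0.01 for all genes, and 52 of the 81 were above 0. Those that rose did so by 0.11 to 0.95 on the log2 scale, with a median of 0.32. By complex, 13 of 36 tested complex I genes rose, 0 of 4 of complex II, 2 of 9 of complex III, Cycs, 5 of 14 of complex IV and 5 of 17 of complex V. All 6 MET+LEU libraries were above all 6 SD libraries for 9 members, beside 3.41% of all genes.

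In complex I, the largest changes were in accessory subunits. Ndufa13 went from 33.6 to 50.8 CPM in SD (median 42.1) to 68.4 to 118.9 in MET+LEU (median 80.2), without overlap. The log2 fold change was 0.95 (SE 0.115, edgeR adjusted p = 2.89e-06). Ndufa5, a subunit of the matrix arm, lay between 16.3 and 20.4 CPM in SD and between 24.5 and 45.9 in MET+LEU, and rose by 0.69 (SE 0.107, edgeR adjusted p = 3.26e-05). In both genes the highest library was MET+LEU replicate 6, and without it the changes were 0.82 and 0.53, both still called.

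Ndufb9 and Ndufb10, subunits of the membrane arm, rose by 0.47 and 0.37 (edgeR adjusted p = 0.000157 and 3.9e-05). Ndufb9 ranged from 84.6 to 111.0 CPM in SD and from 109.0 to 178.4 in MET+LEU, with overlap, while Ndufb10 ranged from 45.6 to 58.6 and from 59.9 to 79.5 without overlap. Among the 7 nuclear catalytic subunits of complex I, which carry the flavin and iron-sulfur clusters, 3 rose: Ndufs8 by 0.26, Ndufv2 by 0.14 and Ndufs1 by 0.11 (these 3 were named after their values were seen). Their median log2 fold change was 0.06, and that of the 29 accessory subunits was 0.14, of which 10 rose. Ndufv2 and Ndufs1 lost the call when a single library was left out (adjusted p up to 0.0634 without MET+LEU replicate 2 and 0.141 without SD replicate 1).

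No complex II gene passed the test in MET+LEU vs. SD. Sdha, the flavoprotein of succinate dehydrogenase, ranged from 172.1 to 213.0 CPM in SD and from 197.4 to 216.8 in MET+LEU, with a log2 fold change of 0.10 (SE 0.037, edgeR adjusted p = 0.0632). The iron-sulfur subunit Sdhb had a log2 fold change of -0.08, Sdhc of 0.02 and Sdhd of -0.15 (edgeR adjusted p = 0.406, 0.825 and 0.19). These p-values miss the threshold and do not show that the levels were equal. Sdha did pass in MET+LEU vs. LEU, at 0.13 and without overlap, and in MET+LEU vs. 2% HS, at 0.10 (edgeR adjusted p = 0.0294 and 0.0304).

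In complex III, Uqcrb and Uqcrh rose, and the other 7 members did not pass. Uqcrb, the subunit that binds ubiquinone, ranged from 90.9 to 107.5 CPM in SD (median 99.7) and from 120.5 to 177.6 in MET+LEU (median 125.5). The groups did not overlap, and the log2 fold change was 0.44 (SE 0.066, edgeR adjusted p = 2.33e-05), or 0.34 without MET+LEU replicate 6. Uqcrh, the hinge protein next to cytochrome c1, rose by 0.33 (edgeR adjusted p = 0.00078) with overlap. Cyc1, cytochrome c1 itself, had a log2 fold change of -0.14 (edgeR adjusted p = 0.34), and MET+LEU replicate 6 was its lowest library, at 82.8 CPM against 129.4 to 148.2 in the other 5.

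Cycs, the soluble cytochrome c that carries electrons from complex III to complex IV, had the smallest adjusted p of all members. It lay between 41.7 and 46.7 CPM in 2% HS, 36.0 and 49.6 in SD, 48.4 and 55.3 in MET, 49.4 and 54.6 in LEU, and 62.0 and 87.1 in MET+LEU. The MET+LEU libraries were above those of every other group. The log2 fold change from SD was 0.66 (SE 0.065, edgeR adjusted p = 3.83e-09), and that from both LEU and MET was 0.42 (edgeR adjusted p = 0.000218 and 6.43e-05).

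**Figure D2:**
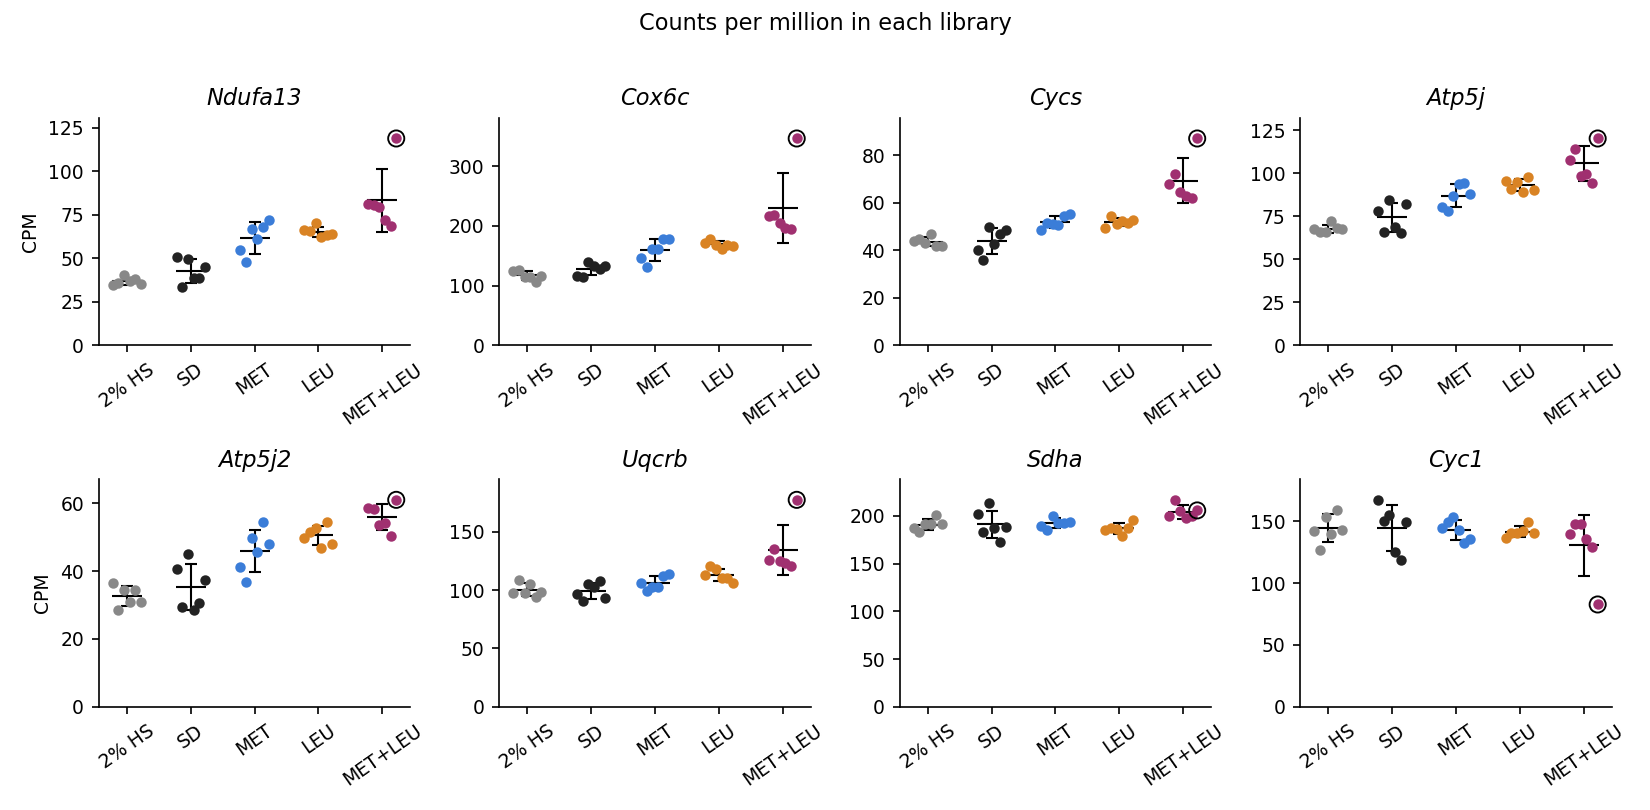
Counts (CPM, vertical axis, from 0) in each of the 30 libraries for 8 members, by group (horizontal axis). Points are libraries, black bars the mean and SD of 6, and a ring marks MET+LEU replicate 6. That library is the highest for Ndufa13, Cox6c, Cycs, Atp5j, Atp5j2 and Uqcrb and the lowest for Cyc1. Sdha lies between 172.1 and 216.8 over all 30 libraries.

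In complex IV, 5 of 14 tested members rose and 1 fell. Cox6c, a small nuclear subunit without a muscle form, lay between 105.5 and 126.8 CPM in 2% HS, 114.3 and 138.8 in SD, 130.9 and 178.4 in MET, and 160.8 and 178.7 in LEU. In MET+LEU, 5 libraries lay between 195.0 and 219.1, and replicate 6 was at 346.5. No MET+LEU library overlapped any other group, and the log2 fold change from SD was 0.85 (SE 0.105, edgeR adjusted p = 4.27e-06), or 0.69 without replicate 6. Smaller rises were those of Cox5b (0.19), Cox6b1 (0.18) and Cox4i1 (0.16), with edgeR adjusted p = 0.0101, 0.00253 and 0.0387, and all 3 overlapped SD. The call of Cox4i1 was lost without any of 17 libraries in turn, with an adjusted p of up to 0.118 at a log2 fold change of 0.11 (without SD replicate 5). In the other 16 the change was 0.13 to 0.16.

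Of the 3 striated muscle forms of complex IV, 1 rose. Cox7a1 rose from 4.75 to 8.61 CPM in SD to 7.11 to 11.2 in MET+LEU, by 0.36 on the log2 scale (SE 0.116, edgeR adjusted p = 0.0231), and its call was lost without SD replicate 4 (adjusted p = 0.0963) or MET+LEU replicate 1 (0.0849). Cox6a2 and Cox8b had log2 fold changes of 0.15 and -0.01 (edgeR adjusted p = 0.242 and 0.981). Cox8b spread from 7.45 to 23.8 CPM within MET+LEU, with replicate 6 the lowest. Among the forms found in all tissues, Cox8a fell by 0.14 on the log2 scale (edgeR adjusted p = 0.0491), a call lost without MET+LEU replicate 6 (adjusted p = 0.094) or any of 9 other libraries. Cox6a1 and Cox7a2 had log2 fold changes of -0.17 and -0.09 (edgeR adjusted p = 0.112 and 0.359). Cox7a2l, which takes part in supercomplexes, and Ndufa4 both had log2 fold changes of 0.15 (edgeR adjusted p = 0.164 for each). Ndufa4 is found in complex IV but is grouped here with complex I. Cox7b had a log2 fold change of -0.01 (edgeR adjusted p = 0.88).

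Per kb of exon, the muscle and the general form differed in ratio by pair. The level of Cox6a2 over that of Cox6a1 was a mean of 0.899 in SD and 1.12 in MET+LEU, that of Cox7a1 over Cox7a2 0.185 and 0.253, and that of Cox8b over Cox8a 0.305 and 0.314. Over the 6 libraries of SD, the log2 ratio had an SD of 0.159, 0.269 and 0.243 for the 3 pairs, and in MET+LEU 0.081, 0.214 and 0.552. These ratios were not tested.

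**Figure D3:**
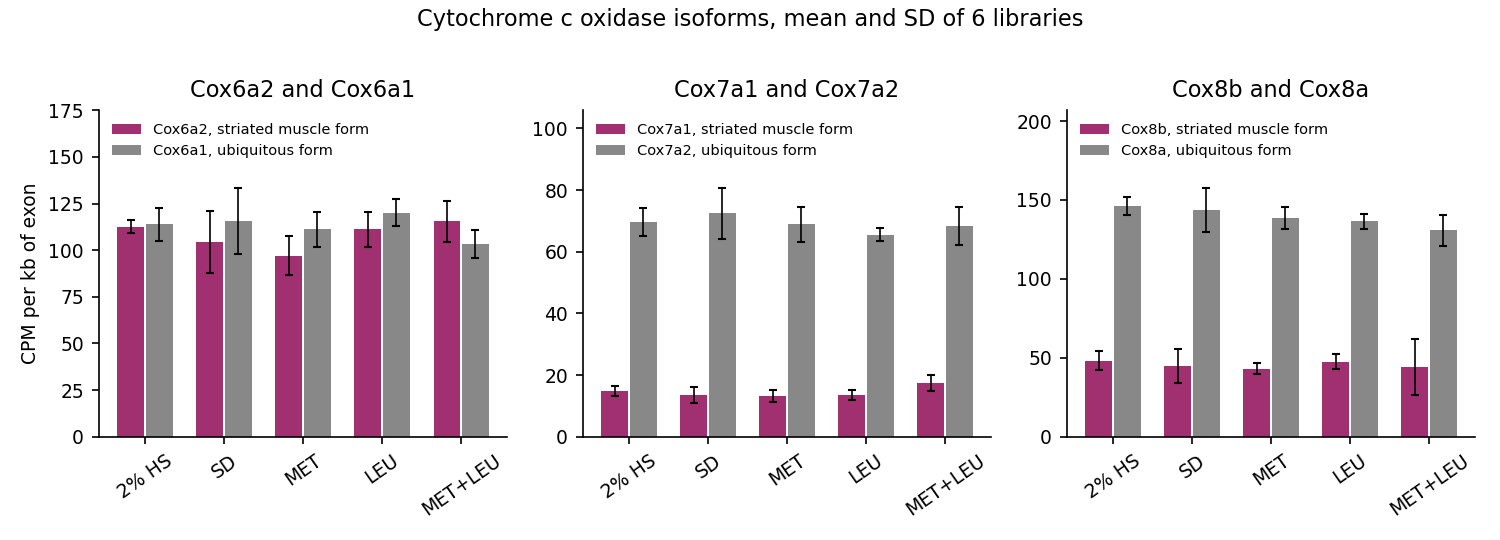
Level in CPM per kb of exon (vertical axis, from 0) of the striated muscle form (purple) and the form found in all tissues (grey) of 3 complex IV subunits in the 5 groups (horizontal axis). Bars are means and error bars SDs of 6 libraries; Cox6a2 and Cox6a1 are near each other, at 104.2 and 115.7 in SD, while Cox7a1 and Cox8b stay below their partners in every group.

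In complex V, 5 of 17 tested members rose and 1 fell. Atp5j2 went from 28.6 to 45.0 CPM in SD to 50.5 to 61.0 in MET+LEU, by 0.66 on the log2 scale (SE 0.095, edgeR adjusted p = 1.77e-05). Atp5j went from 65.4 to 84.6 CPM to 94.3 to 120.1, by 0.51 (SE 0.059, edgeR adjusted p = 1.67e-07). Neither gene overlapped between SD and MET+LEU. Atp5c1, the gamma subunit of the central rotor, rose by 0.20 (edgeR adjusted p = 6.53e-05), and Atp5h, the d subunit of the stalk, by 0.21 (edgeR adjusted p = 0.0182), a call lost without MET+LEU replicate 6 (adjusted p = 0.0688) or SD replicate 2 (0.0571). Its direction turned, to -0.02, with the mitochondrial rRNA share of each library in the fit and MET+LEU replicate 6 left out. The catalytic subunit Atp5b had a log2 fold change of 0.00 (SE 0.039). Atp5g2, a gene for the membrane c ring that was named after its value was seen, fell by 0.20 on the log2 scale (edgeR adjusted p = 0.0372), and without MET+LEU replicate 6 its adjusted p was 0.0683.

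Left out as a whole, MET+LEU replicate 6 did not end the difference. Without it 26 members rose and 0 fell in MET+LEU vs. SD, where 7.58% and 5.96% of genes did, and 24 of them were called with all libraries.

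The mitochondrial rRNA share also differed within MET. From MET replicate 2 (share 0.244%) to MET replicate 6 (0.705%), Cox6c went from 130.9 to 178.1 CPM and Ndufs1 from 149.5 to 134.8, both examples picked after their values were seen. With the share as a covariate in the fit, 11 members rose in MET+LEU vs. SD and 0 fell, beside 2.3% and 1.42% of all genes. Those 11 included Ndufa13 (0.59), Cycs (0.47), Cox6c (0.45) and Atp5j (0.37). When MET+LEU replicate 6 was left out as well, 7 rose, beside 2.33% of all genes. They were Cycs (0.50), Ndufa13 (0.47), Cox6c (0.43), Ndufb9 (0.29), Atp5j (0.28), Uqcrb (0.24) and Ndufs1 (0.19). In LEU vs. SD that fit called no member, beside 0.0125% of all genes higher and 0.149% lower. In MET+LEU vs. SD it gave Atp5h and Ndufb7 log2 fold changes of -0.02 and -0.03. They were at 0.21 and 0.33 in the fit of all libraries without the share. With the nuclear rRNA share instead, 15 rose and 0 fell, beside 3.31% and 2.19% of all genes. The share differs between the groups, so the fit cannot separate it fully from the treatment, and its part in the result was not tested.

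**Figure D4:**
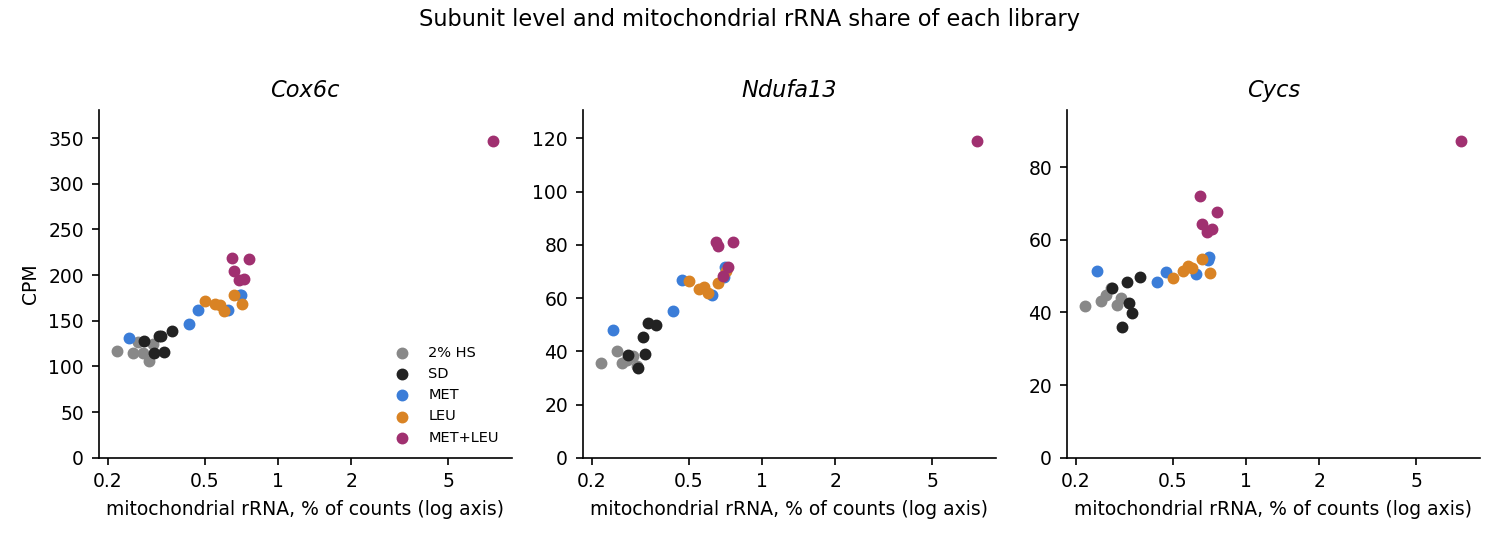
CPM of Cox6c, Ndufa13 and Cycs (vertical axes, from 0) against the percent of each library's counts on mitochondrial rRNA (horizontal log axis) in the 30 libraries, coloured by group. The 2% HS and SD libraries lie at the lower left at shares of at most 0.367%, MET libraries span 0.244% to 0.705%, and MET+LEU replicate 6 stands alone at 7.64%.

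Against 2% HS, 32 members rose and 4 fell in MET+LEU, where 22.1% of genes rose and 20.3% fell. Ndufa13 had the largest change, 1.18 on the log2 scale (SE 0.117, edgeR adjusted p = 5.52e-09), and Cox6c followed with 0.97. In 18 members every MET+LEU library was above every 2% HS library, beside 11.5% of all genes. The 4 that fell were Atp5g1, Atp5g2, Cox8a and Uqcrc1 (Atp5g1 and Uqcrc1 were named after their values were seen). Comparisons with SD share its 6 libraries, as do those with MET+LEU, so their values stand side by side and are not independent.

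MET+LEU was also above each single agent for some members. Against LEU, 14 rose and 0 fell, beside 4.61% and 1.67% of all genes, and against MET, 15 rose and 0 fell, beside 5.54% and 3.15%. Cox6c was higher by 0.44 than in LEU and by 0.53 than in MET (edgeR adjusted p = 0.0135 and 0.00289), without overlap in either. These counts changed when single libraries were left out. Without MET+LEU replicate 6, 7 rose against LEU, where 1.94% of all genes rose and 0.903% fell. Against MET, 11 then rose, where 2.65% of all genes rose and 1.87% fell. The counts were as low as 6 without LEU replicate 3 and 10 without MET replicate 2, for which no share of all genes is given here. With upper-quartile scaling 8 rose and 1 fell against LEU. Ndufa13 was higher than in MET by 0.43 (edgeR adjusted p = 0.0169), and 0.35 higher than in LEU, which did not pass (edgeR adjusted p = 0.0623).

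No interaction of MET and LEU passed. Of 81 members, 0 were called in either direction by edgeR, where 0.0377% of all genes were higher and 0.0126% lower than the sum of the 2 single effects. At an unadjusted p under 0.05, 5 members were higher and 3 lower, beside 904 and 485 of all 15907 genes. DESeq2 called 0 members, beside 2.18% higher and 0.363% lower of the genes to which it gave an adjusted p. For Cycs the interaction was 0.17 (SE 0.092, edgeR adjusted p = 0.601), for Cox6c 0.12 and for Ndufa13 -0.17. These p-values do not show that the effects of both agents add.

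Other genes of the organelle were read for comparison, each list by its count and median. Of the 13 subunits encoded by the mitochondrial genome, 7 rose and 0 fell in MET+LEU vs. SD, beside 10.6% and 7.8% of all genes. Their median log2 fold change was 0.58. The largest called changes were those of mt-Nd2 (0.97) and mt-Nd5 (0.84), and the median was 0.21 without MET+LEU replicate 6, with 6 higher. In that replicate mt-Nd2 reached 5501 CPM, against a median of 2114 in the group. With serum removed, 1 of the 13 rose, mt-Nd4l by 1.39 (edgeR adjusted p = 0.0377), beside 13.9% of all genes. Its highest SD library was at 43.8 CPM, against a median of 5.98, and without SD replicate 5 the log2 fold change was 0.37 (edgeR adjusted p = 0.425).

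Assembly factors build the complexes without staying in them. In MET+LEU vs. SD, 3 of 52 rose and 1 fell, beside 10.6% and 7.8% of all genes. Ndufaf2, a complex I factor, rose by 0.81, the complex IV factors Cox20 and Cox17 by 0.78 and 0.39, and Ndufaf3 fell by 0.38 on the log2 scale (Cox17 and Ndufaf3 were named after their values were seen). On serum deprivation 3 rose and 6 fell, beside 13.9% and 13.9% of all genes, with Fmc1 higher by 0.64 and Higd1a lower, at -0.40. Of 15 genes for other mitochondrial proteins, taken as signs of mitochondrial mass, 2 rose and 0 fell in MET+LEU vs. SD. They were the chaperone Hspd1, by 0.20, and the import factor Timm44, by 0.18. In SD vs. 2% HS 2 of the 15 rose and 2 fell, with Phb at 0.18 and Slc25a3 at -0.14. The counts of both comparisons stand beside the same shares of all genes.

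Transcription regulators of these genes changed in both comparisons. Of 16, 1 rose and 5 fell in SD vs. 2% HS, where 13.9% of all genes rose and 13.9% fell, and 2 rose and 2 fell in MET+LEU vs. SD, where 10.6% and 7.8% did. Those that fell on serum deprivation included Perm1 at -2.11 and Ppargc1a, the coactivator PGC-1 alpha, at -1.14 (edgeR adjusted p = 1.15e-07 and 3.14e-10). Ppargc1a lay between 7.39 and 10.2 CPM in 2% HS and between 3.52 and 4.06 in SD, without overlap. In MET+LEU vs. SD Ppargc1a had a log2 fold change of 0.12, Esrra of -0.17, Nrf1 of -0.13 and Tfam of 0.07, and none of the 4 passed (edgeR adjusted p = 0.588, 0.0702, 0.0947 and 0.443). Tfb2m and Gabpa rose by 0.26 and 0.24, and Pprc1 and the mitochondrial RNA polymerase Polrmt fell by 0.13 and 0.15 on the log2 scale (both named after their values were seen). Polrmt lost the call without SD replicate 1, among others (edgeR adjusted p = 0.171). The annotated exons of Gabpa and Atp5j share 397 bases on opposite strands.

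Myotube markers and cycling genes shifted in MET+LEU vs. SD as well. Of 12 myotube genes 6 rose and 0 fell, with the troponins Tnnc2 at 0.98 and Tnnt3 at 0.82. Of 8 genes of cycling or undifferentiated myoblasts 4 fell and 0 rose, with Ccnb1 at -0.89 and Top2a at -0.64. Over all genes, 10.6% rose and 7.8% fell. The counts of both lists were the same without MET+LEU replicate 6, beside 7.58% and 5.96% of all genes. In SD vs. 2% HS the lists gave 1 higher and 3 lower (Ckm at -0.98 and Myh1 at -0.39), and 1 higher and 1 lower (Id1 at 0.33 and Pax7 at -0.37). In that comparison 13.9% of all genes rose and 13.9% fell. The part of such shifts in the members' changes was not tested.

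The members that rose in MET+LEU vs. SD were also described by features of their annotation, without a test. The 26 had a median exon length of 1508 bases and a median GC content of 50.1%, and the other 55 had 1756 bases and 51.3%. Near copies elsewhere in the genome, at 95% identity or more over at least 100 coding bases, were found for 10 of the 26 and 13 of the 55. Cox6c, Uqcrb and Cycs are among those with copies. Reads of such genes may be split between copies or dropped in counting, and which was done is not given in the sources used here. Over all 30 libraries, annotated copies held the most counts for Cox7a2l (14921) and Ndufa12 (6305), and held 2711 for Cox5b, 600 for Ndufs5, 391 for Uqcrb, 344 for Cycs and 59 for Cox6c, and their part in the results was not tested. Ndufa13 shares 375 exon bases with Tssk6 on the other strand, which had 19 counts in all.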

How the data were processed

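RNA-seq of 30 C2C12 libraries was analysed from the table of raw counts per gene deposited by the authors. Per the submitters' processing notes, reads were trimmed with cutadapt 1.16, aligned to GRCm38 with STAR 2.7.6a, counted with featureCounts 1.6.3 and tested with DESeq2 1.30.1. The strand and multimapping settings of the counting are not given in the sources used here. Gene symbols came from GENCODE M21 (55141 of 55487 identifiers matched, 346 did not), and promoters from RefSeq.

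Samples were grouped by their labels. Genes were kept with filterByExpr (minimum count 10, minimum total 15), and 15907 were tested with edgeR 4.0.16 in R 4.3.3: TMM scaling, a quasi-likelihood fit over all 30 libraries with group as the factor, 8 comparisons, and Benjamini-Hochberg adjustment over all genes at 0.05. CPM used the TMM-scaled totals. The fit was tested on simulated data. DESeq2 1.42.0, limma 3.58.1, BLAST 2.17.0 and Python 3.11.15 served the alternatives, the near copies and the remaining steps. Alternatives were other scalings, no filter, only the groups compared, a replicate block, GC and length offsets and leaving out each library. Covariate fits on rRNA shares were chosen after seeing the data. Depth was 12784960 to 19604103 counts per library, and 3 counts were worth 0.153 to 0.235 CPM.

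The members and lists were chosen with earlier results of these data known. Genes were named by rule: up to 4 called members per complex with the largest change, separately for serum deprivation and for MET+LEU against SD; isoform pairs, the Sdh genes, Cyc1 and Cycs; every member called in MET vs. SD, LEU vs. SD or the interaction; and, of other lists, the 2 largest called changes plus Ppargc1a, Esrra, Nrf1 and Tfam. The symbol rule excluded 12 matches that are not protein coding.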

Additional observations from a re-analysis of the deposited data

Results flagged for a closer look

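In 170 groups of 6 libraries (34 named members in 5 groups), 8 held a library whose gap to its nearest neighbour exceeded Dixon's critical value, where chance gives about 8.5. Of the 8, 6 were in MET+LEU replicate 6. It was high for Cox6c (346.5 CPM, others 195.0 to 219.1), Ndufa13 (118.9, others 68.4 to 81.1), Ndufa5 (45.85, others 24.5 to 29.7), Ndufb9 (178.4, others 109.0 to 131.2) and Uqcrb (177.6, others 120.5 to 135.5), and low for Cyc1 (82.78, others 129.4 to 148.2). The other two were Cox6a1 in SD replicate 1 (104.9 CPM, others 71.3 to 82.8) and Cox7a1 in SD replicate 4 (4.745 CPM, others 7.23 to 8.61).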

How the results depend on the processing

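Over 68 named results and 2720 alternative values, 2481 kept their direction and side of the threshold, 121 lost the call, 13 gained it and 105 changed sign; the cause was not tested. Where not given here, the counts of called members were within 1.5 times those reported. Of MET vs. SD (0 called), DESeq2 called 5 and no filter 4. Only the groups compared, the replicate block, and each of the mitochondrial and nuclear rRNA covariates called 1. With the mitochondrial covariate 0.101% of all genes were higher and 0.119% lower, and with the nuclear one 0.088% and 0.0943%. Of LEU vs. SD (4), DESeq2 and no filter called 7, only the groups compared 8, and the mitochondrial rRNA covariate in 29 libraries 0. Of the genes to which DESeq2 gave an adjusted p, 0.67% were higher and 0.609% lower. In the 29 libraries 0.0125% of all genes were higher and 0.149% lower. Of MET+LEU vs. SD (28), the mitochondrial rRNA covariate called 11, the nuclear one 15 and the former in 29 libraries 7. Beside them, 2.3%, 3.31% and 2.33% of all genes were higher and 1.42%, 2.19% and 2.09% lower. The fit in 29 libraries gave 11 for MET+LEU vs. 2% HS (36), beside 8.5% of all genes higher and 7.83% lower. Of MET+LEU vs. LEU (14), upper-quartile scaling called 9 and only the groups compared 4. The mitochondrial covariate called 7, the nuclear one 5 and the 29 libraries 9. With these covariates 1.99%, 1.38% and 2.37% of all genes were higher and 0.591%, 0.484% and 1.22% lower. Of MET+LEU vs. MET (15), the counts were 8 with only the groups compared and 8, 4 and 6 with the covariates. Of all genes, 1.58%, 0.899% and 1.99% were then higher and 1.04%, 0.534% and 1.63% lower. The interaction (0) gave 1 with the nuclear covariate, beside 0.0377% of all genes higher and 0.0126% lower. For SD vs. 2% HS (6 higher, 1 lower) the split was 9 and 0 without a filter and 8 and 0 with only the groups compared. Shares of all genes are not given here for upper-quartile scaling, no filter, only the groups compared or the replicate block.

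Leaving out each library gave 2 to 13 called members in SD vs. 2% HS, 0 to 5 in MET vs. SD, 4 to 9 in LEU vs. SD, 22 to 30 in MET+LEU vs. SD, 34 to 40 in MET+LEU vs. 2% HS, 6 to 14 in MET+LEU vs. LEU, 10 to 16 in MET+LEU vs. MET and 0 in the interaction. Of these fits, shares of all genes are given above only for that without MET+LEU replicate 6. With the replicate block, 31 members were called in MET+LEU vs. SD. The numbers do not pair the libraries: deviations of same-numbered libraries correlated at a mean of 0.016 (-0.091 to 0.142), and those of different numbers at -0.003.

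Log2 fold changes that changed sign follow, with the reported value (-0.15 to 0.33) first, and of them Atp5h and Ndufb7 in MET+LEU vs. SD had been called. In SD vs. 2% HS, Atp5c1 (0.0086) gave -0.0181 to 0.0223 without single libraries, -0.0022 (upper quartile), -0.0034 (29 libraries). Atp5h (0.0213) gave -0.0231 to 0.0493 without single libraries, -0.0095 (mitochondrial covariate), -0.0027 (nuclear covariate), -0.0246 (29 libraries). Cox6a1 (0.0239) gave -0.0672 to 0.0564 without single libraries, -0.0509 (offsets), -0.0223 (29 libraries). Cox7a2l (0.0075) gave -0.0304 to 0.056 without single libraries, -0.004 (upper quartile), -0.0136 (mitochondrial covariate), -0.0094 (nuclear covariate), -0.0401 (29 libraries). Cox8a (-0.0221) gave -0.0715 to 0.011 without single libraries. Cyc1 (0.0031) gave -0.046 to 0.0496 without single libraries, -0.0083 (upper quartile), -0.0004 (replicate block), -0.0412 (offsets). Cycs (0.0033) gave -0.0374 to 0.0541 without single libraries, -0.0072 (upper quartile), -0.0277 (mitochondrial covariate), -0.0093 (nuclear covariate), -0.0222 (29 libraries). Ndufb10 (0.0308) gave -0.0103 to 0.0606 without single libraries, -0.0017 (29 libraries). Sdha (0.0013) gave -0.034 to 0.0266 without single libraries, -0.0097 (upper quartile), -0.0129 (offsets), -0.0023 (mitochondrial covariate), -0.0064 (nuclear covariate), -0.0185 (29 libraries). Uqcrb (-0.0122) gave -0.0375 to 0.0127 without single libraries, 0.0185 (offsets). In MET+LEU vs. SD, Atp5h (0.2079) gave -0.0249 (29 libraries). Cox6a2 (0.1467) gave -0.0095 (29 libraries). Cox7a2 (-0.086) gave 0.0214 (mitochondrial covariate), 0.0378 (29 libraries). Cox7a2l (0.1451) gave -0.0651 (29 libraries). Cox7b (-0.0142) gave -0.0553 to 0.0234 without single libraries, 0.0057 (mitochondrial covariate). Cox8b (-0.0095) gave -0.1472 to 0.119 without single libraries, 0.0177 (offsets), 0.3524 (mitochondrial covariate), 0.1862 (nuclear covariate). Cyc1 (-0.1441) gave 0.1409 (mitochondrial covariate). Ndufa4 (0.1462) gave -0.0341 (29 libraries). Ndufb7 (0.3282) gave -0.0295 (29 libraries). Sdhc (0.0194) gave -0.0142 to 0.0361 without single libraries. Sdhd (-0.1535) gave 0.0418 (mitochondrial covariate).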

Other observations

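Cox7a1 in MET+LEU vs. SD had log2 fold changes of 0.36 in the reported fit and 0.57 with the mitochondrial rRNA covariate in 29 libraries (edgeR adjusted p = 0.0755). With serum removed (SD vs. 2% HS), the regulators Esrrg and Ppargc1b fell by 1.13 and 0.31 on the log2 scale (edgeR adjusted p = 5.28e-05 and 5.66e-07), and Yy1 rose by 0.13 (edgeR adjusted p = 0.00419). These 3 were chosen once their values were known. The precision of low members, such as Cox7a1 near 7 CPM, is limited by depth and by the 6 libraries per group.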
